A study of Drosophila melanogaster with 4 samples.

Results

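The small heat shock protein genes of Drosophila are described here in thoraces, the body segment that holds the flight muscle, after knockdown of the transcription factor MEF2 in adult muscle. The 7 genes taken were Hsp22, Hsp23, Hsp26, Hsp27, Hsp67Ba, Hsp67Bc and l(2)efl. They were picked out by symbol, from a list chosen with earlier results of these data known. Of these, 6 had a row in the table of 13012 genes, and Hsp22 was not analysed here.

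Both genotypes carried Act88FGS, a GeneSwitch driver under control of the flight muscle actin gene Act88F, whose GAL4 fusion protein acts only in flies given RU486. Act88FGS>MEF2RNAi flies also carried a hairpin against Mef2 under UAS control, whereas Act88FGS>w1118 flies carried the driver without a hairpin. Each genotype was kept on food with RU486 or with ethanol, the solvent (without RU486), and all flies were females fed the high calorie diet and aged 10 days. RNA was prepared from 8 thoraces per library, pooled, with 1 library for each of the 4 conditions. Whole thoraces contain other cells beside muscle, and fewer cells of a type cannot be told apart from less RNA per cell in such samples. Since each condition has 1 library, the differences below lack a replicate check and carry no p-values. The values are the log2 values that the authors deposited, in which the 4 values of each gene sum to 0, so that a value says how far a library lies from the mean of that gene. Expression levels and read depth are therefore unknown, and levels cannot be compared between genes.

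Small heat shock proteins are chaperones built around a conserved alpha-crystallin domain. They bind unfolding proteins without using ATP and hold them for refolding by the Hsp70 system or for degradation. Most of the fly genes lie in one cluster on the left arm of the third chromosome, respond to heat through the heat shock factor Hsf, and are also switched on without heat in development, by ecdysone, in the ovary and with age. Higher levels of several of these chaperones lengthen fly lifespan. In muscle they work beside filamin and the co-chaperone Starvin where contraction damages proteins.

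The common level of the libraries shifted with RU486, and in opposite directions. Over all genes, MEF2 RNAi flies had a median log2 fold change, with over without RU486, of -0.38 and w1118 flies one of 0.36, and 83.7% of genes followed both directions. Fold changes are therefore given as deposited and also on an all-gene scale, in which the median gene of every library is at 0. That scale adds one amount to every log2 fold change of MEF2 RNAi flies and takes another from every one of w1118 flies. For Mef2 itself the log2 fold changes in MEF2 RNAi and w1118 flies were -0.63 and 0.32 as deposited, -0.26 and -0.026 on the all-gene scale, and -0.16 and -0.17 relative to ribosomal protein genes, so that on the last scale the fold changes of both genotypes were alike. On that scale the value of Mef2 was lower in MEF2 RNAi than in w1118 flies both with RU486 (-0.19) and without it (-0.20). As deposited, the same difference between genotypes was -0.60 with RU486 and 0.35 without it. On the all-gene scale it was -0.26 with RU486 and -0.018 without it. The markers of muscle were present in the table, 18 of 18, though the table cannot show their levels.

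The 5 members of the cluster with values (Hsp23, Hsp26, Hsp27, Hsp67Ba and Hsp67Bc) were higher with RU486 than without it in both genotypes, as were 9.41% of all genes. The sixth, l(2)efl, followed the bulk of genes, with a lower value upon RU486 in MEF2 RNAi flies and a higher one in w1118 flies. MEF2 RNAi flies had a median log2 fold change of 0.49 over the 6 genes (all genes -0.38), and w1118 flies one of 0.73 (all genes 0.36). The medians on the all-gene scale were 0.86 for MEF2 RNAi and 0.39 for w1118 flies, and the same 5 genes were higher in both, as were 16.1% of all genes.

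**Figure D1:**
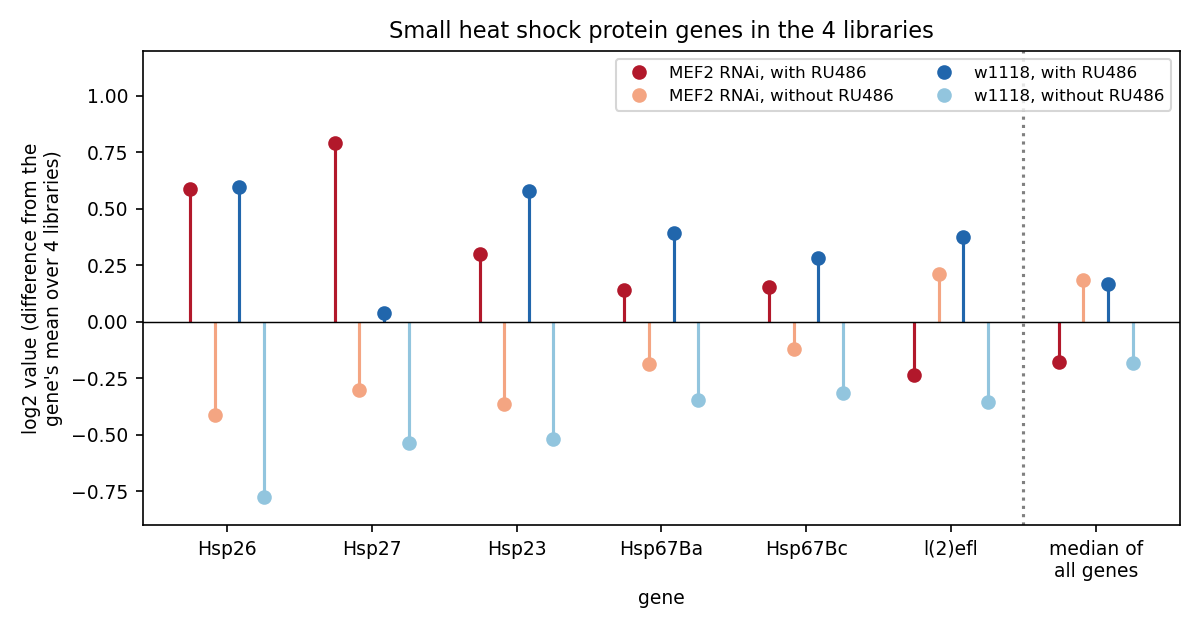
Log2 value (y axis, difference from the gene's mean over the 4 libraries) of each small heat shock protein gene in the 4 libraries, 1 point per library, with the median of all genes at the right. The 5 cluster genes are above 0 in both libraries with RU486 and below 0 in both without it, while l(2)efl alternates like the median of all genes.

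Hsp26 encodes a cytosolic chaperone that is also made in the ovary without heat. Its log2 values were 0.59 with RU486 and -0.41 without it in MEF2 RNAi flies, and 0.60 with RU486 and -0.78 without it in w1118 flies. As deposited, both libraries with RU486 were thus at nearly the same height, above both libraries without it. On the all-gene scale they were at 0.77 in MEF2 RNAi and 0.43 in w1118 flies, still above both without it. MEF2 RNAi flies showed a 2.01-fold and w1118 flies a 2.59-fold higher value with RU486, at ranks 45 and 48 from the top of the 13012 genes. The corresponding folds on the all-gene scale were 2.58 and 2.03.

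Hsp23, a cytosolic chaperone and one of the classical heat-induced genes, had log2 values of 0.30 with RU486 and -0.36 without it in MEF2 RNAi flies, and of 0.58 with RU486 and -0.52 without it in w1118 flies. The order of the libraries was that of Hsp26. The gap between the libraries with RU486 was wider than for Hsp26 as deposited and narrower on the all-gene scale (0.48 and 0.41). The value with RU486 was 1.58-fold higher in MEF2 RNAi and 2.14-fold higher in w1118 flies, at ranks 93 and 102. Set to all genes, the folds were 2.04 and 1.68.

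Hsp27, which encodes a chaperone found mainly in the nucleus and is also expressed in ovaries without heat, stood apart from its neighbours. Its log2 values were 0.79 with RU486 and -0.30 without it in MEF2 RNAi flies, against 0.041 with RU486 and -0.53 without it in w1118 flies. Of the 6 genes it alone had its highest value in the library of MEF2 RNAi flies with RU486, in which 3.97% of all genes were at their highest. The other 5 were highest in w1118 flies with RU486. MEF2 RNAi flies showed a fold change of 2.13 for Hsp27, rank 29 from the top, and w1118 flies one of 1.49, rank 927. These became 2.74 and 1.17 on the all-gene scale.

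Hsp67Ba and Hsp67Bc had smaller changes than Hsp23 and Hsp26 in both genotypes. Hsp67Ba, which encodes the longest protein of the family (445 codons, against 186 to 213 for the other 5 genes with values), had log2 values of 0.14 with RU486 and -0.19 without it in MEF2 RNAi flies, and of 0.39 with RU486 and -0.35 without it in w1118 flies. Hsp67Bc, a cytosolic chaperone that binds Starvin and is often compared with human HSPB8, had 0.15 with RU486 and -0.12 without it in MEF2 RNAi flies, and 0.28 with RU486 and -0.32 without it in w1118 flies. In both genes the 4 libraries came in the order they had for Hsp23 and Hsp26. No pair of the 6 genes was closer in its 4 values, with a root mean square difference of 0.067, the next pair being Hsp23 and Hsp67Ba at 0.17. For Hsp67Ba, MEF2 RNAi flies showed a fold change of 1.25 and w1118 flies one of 1.67, and for Hsp67Bc they showed 1.21 and 1.51. In MEF2 RNAi flies, where most genes were lower with RU486, these small changes were at ranks 227 and 247 from the top. Set to all genes, MEF2 RNAi and w1118 flies had folds of 1.62 and 1.31 for Hsp67Ba, and of 1.56 and 1.19 for Hsp67Bc.

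The gene l(2)efl encodes the fly protein called CryAB, which sits at the Z-discs of muscle. It had log2 values of -0.24 with RU486 and 0.21 without it in MEF2 RNAi flies, against 0.37 with RU486 and -0.35 without it in w1118 flies. In MEF2 RNAi flies it alone of the 6 genes was lower with RU486, at a fold of 0.732 and rank 8383 from the top, while w1118 flies had 1.66 and rank 304. The folds on the all-gene scale were 0.943 and 1.30. Relative to 79 cytosolic ribosomal protein genes, another common reference, its log2 fold change under MEF2 RNAi was 0.022, so that its direction there depends on the scale. On that scale all 6 genes were higher with RU486 in both genotypes, as were 13.4% of all genes.

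The thresholds used for these libraries are a fold change of at least 1.5 or at most 0.65. The study set them for MEF2 RNAi flies and also required that controls did not change the same way. Here the limits were applied to each genotype alone, so counts for a single genotype are not the study's calls. In MEF2 RNAi flies, Hsp23, Hsp26 and Hsp27 reached 1.5 (3 of 6, with 0.807% of all genes past it) and 0 of 6 were at or below 0.65 (6.99% of all genes). In w1118 flies all but Hsp27 reached 1.5 (5 of 6, 6.54% of all genes) and 0 of 6 were at or below 0.65 (0.0384%). Hsp23 and Hsp26 reached 1.5 in both genotypes (2 of 6, 0.231% of all genes). Hsp27 alone reached 1.5 in MEF2 RNAi flies and not in controls (1 of 6, 0.576%). Its control fold of 1.49 lay just under the limit, whereas that of Hsp67Bc, 1.51, lay just over it. With a limit of 2 in place of 1.5, Hsp27 was still past it in MEF2 RNAi flies and not in controls.

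The counts changed places between the genotypes on the all-gene scale. There, 5 of 6 genes reached 1.5 in MEF2 RNAi flies (2.14% of all genes) and 2 of 6, Hsp23 and Hsp26, in w1118 flies (1.25%). These 2 were past the limit in both genotypes (0.5% of all genes). Hsp27, Hsp67Ba and Hsp67Bc reached it in MEF2 RNAi flies only (3 of 6, 1.64%). None was at or below 0.65 in MEF2 RNAi flies (0 of 6, 0.438% of all genes) or in w1118 flies (0 of 6, 0.192%). Relative to ribosomal protein genes, the counts were again 5 of 6 in MEF2 RNAi flies (3.38% of all genes) and 2 of 6 in w1118 flies (0.845%). Hsp23 and Hsp26 were the genes past 1.5 in both genotypes on each of the 3 scales.

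**Figure D2:**
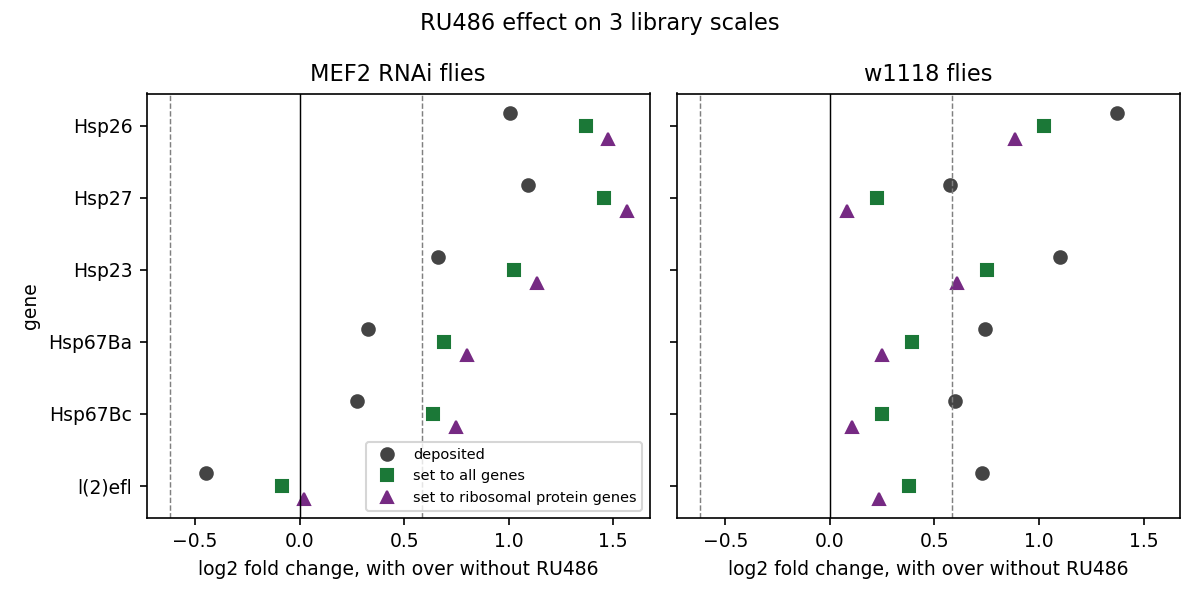
Log2 fold change with over without RU486 (x axis) of each gene on the deposited scale, on the all-gene scale and relative to ribosomal protein genes, in MEF2 RNAi flies (left) and w1118 flies (right). Dashed lines mark folds of 0.65 and 1.5; the 5 cluster genes stay above 0 in both panels and l(2)efl crosses 0 in MEF2 RNAi flies.

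How the genotypes differed depended on the scale for most of the genes. As deposited, the log2 fold change under MEF2 RNAi minus that in w1118 flies was 0.52 for Hsp27, -0.32 for Hsp67Bc, -0.37 for Hsp26, -0.41 for Hsp67Ba, -0.44 for Hsp23 and -1.18 for l(2)efl. The median of this difference over all genes was -0.78. Set to all genes, the difference was 1.23 for Hsp27, 0.39 for Hsp67Bc, 0.34 for Hsp26, 0.30 for Hsp67Ba and 0.28 for Hsp23, and it was -0.46 for l(2)efl. Only Hsp27 and l(2)efl kept their direction, and both kept it relative to ribosomal protein genes as well, at 1.48 and -0.21. Hsp27 ranked 66 from the top and l(2)efl 189 from the bottom of the 13012 genes in this difference, ranks that no common scaling can move. The other 4 genes ranked between 3182 and 3717 from the top.

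Comparing the genotypes within each treatment placed the difference of Hsp27 in the libraries with RU486. With RU486, Hsp27 was higher in MEF2 RNAi than in w1118 flies by 0.75 on the log2 scale, or by 1.10 on the all-gene scale. As deposited, the other 5 genes were lower there, with differences from -0.61 to -0.0083, where 6.37% of all genes were higher. On the all-gene scale they lay between -0.26 and 0.34, and of them only l(2)efl was lower. There 46.8% of all genes were higher. Without RU486, all 6 genes were higher in MEF2 RNAi flies as deposited, by 0.16 to 0.57, as were 94.5% of all genes. On the all-gene scale they lay between -0.21 and 0.20, with only l(2)efl higher (52.5% of all genes). These contrasts use the same 4 libraries as the fold changes above and add no independent evidence.

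**Figure D3:**
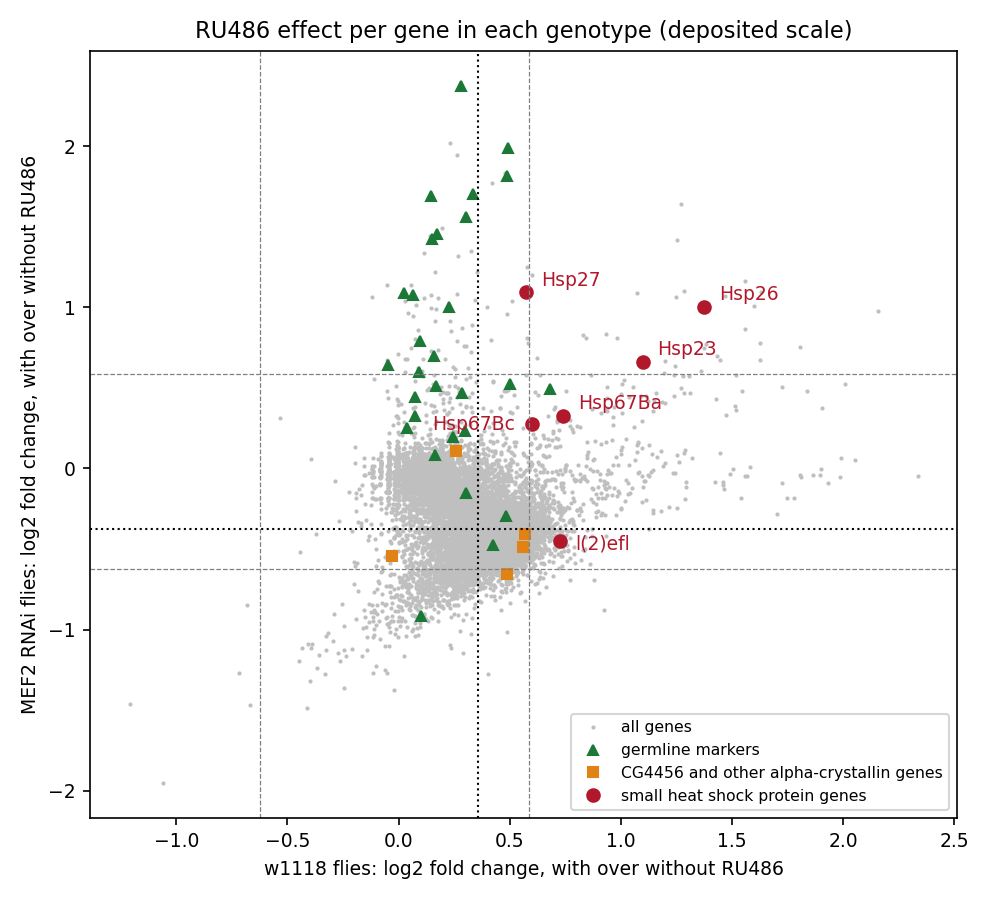
Log2 fold change with over without RU486 in MEF2 RNAi flies (y axis) against that in w1118 flies (x axis) for every gene of the table, deposited scale, with dotted lines at the medians of all genes and dashed lines at folds of 0.65 and 1.5. Hsp23 and Hsp26 lie far out on both axes, Hsp27 lies among germline markers in height but to the right of most of them, and l(2)efl lies near the centre in height.

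The cluster spans 14.2 kb of chromosome 3L, from 9371511 to 9385694 in the BDGP6 annotation. Whether the authors counted reads on that build is not given in the sources used here. Hsp67Bc (9371511 to 9372497), Hsp26 (9376418 to 9377427) and Hsp67Ba (9377802 to 9379534) are on the minus strand, and Hsp23 (9381882 to 9382765) and Hsp27 (9384063 to 9385694) on the plus strand. All 5 are annotated with transcripts of 1 exon, whereas both transcripts of l(2)efl (chromosome 2R, 23684651 to 23685543, minus strand) have 3 exons. Hsp67Ba, Hsp27 and l(2)efl each overlap 1 gene on the opposite strand, an antisense RNA, a pseudogene and St3. The library kit keeps strand, but whether counting used it is not stated.

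The cluster holds a pair of other genes with values. CG4461 (9375430 to 9376293), which also encodes an alpha-crystallin domain protein and lies between Hsp22 and Hsp26, had log2 values of -0.29 with RU486 and 0.25 without it in MEF2 RNAi flies, and of 0.0058 with RU486 and 0.036 without it in w1118 flies. Its log2 fold changes were -0.54 and -0.030, and -0.18 and -0.38 on the all-gene scale, lower with RU486 in both genotypes. CG4456, for which RefSeq lists the name Hsp67Bb, overlaps Hsp22 on the same strand and encodes a small protein without the chaperone domain. It had 0.045 with RU486 and -0.066 without it in MEF2 RNAi flies, and 0.14 with RU486 and -0.12 without it in w1118 flies, so its log2 fold changes were 0.11 and 0.26. As deposited, the 4 libraries thus came in the order they had for Hsp23 and Hsp26. On the all-gene scale that order was not shared, and the log2 fold changes were 0.48 and -0.091. Reads from the part that CG4456 and Hsp22 share cannot be assigned from this table.

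The 10 kb on either side of the cluster, a window set after the data were seen, overlap 7 genes with values. Of these 7, 1 was higher with RU486 in both genotypes as deposited (9.41% of all genes). On the all-gene scale 2 of 7 were so (16.1%), and both counts were near the shares of all genes. The 1 shared by both scales was Klp67A, which encodes a mitotic kinesin, with log2 fold changes of 0.38 and 0.53 in MEF2 RNAi and w1118 flies. As deposited, the other 6 had lower values upon RU486 in MEF2 RNAi flies and higher ones in w1118 flies, like most genes of the table. Outside the cluster, 3 further alpha-crystallin domain genes had the directions of l(2)efl as deposited and on the all-gene scale. As deposited, 83.7% of all genes had these directions. On both scales 56.1% had opposite directions in the genotypes, in either order, which is not the share with the directions of l(2)efl on both. In MEF2 RNAi and w1118 flies, the log2 fold changes of CG14207, which RefSeq also lists as HspB8, were -0.49 and 0.56. CG13133 had -0.41 and 0.57, and CG7409 had -0.66 and 0.49. These genes lay, on the all-gene scale, between -0.29 and -0.042 in MEF2 RNAi flies and between 0.14 and 0.22 in w1118 flies. Relative to ribosomal protein genes, CG13133 was higher with RU486 in both genotypes (0.065 and 0.079) and CG7409 lower in both (-0.18 and -0.0036).

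**Figure D4:**
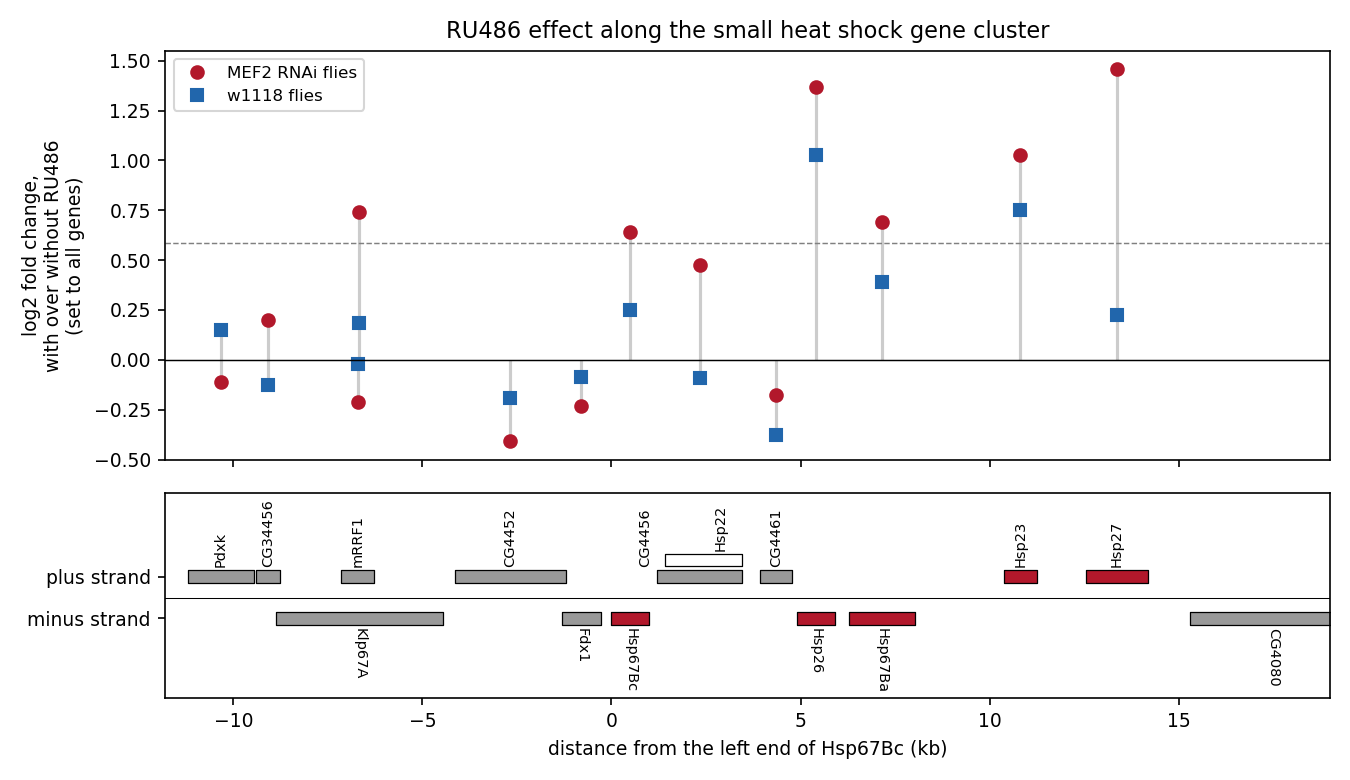
Log2 fold change with over without RU486 (y axis, all-gene scale) of each gene with values along the 67B cluster and its flanks, against the distance in kb from the left end of Hsp67Bc, with the dashed line at a fold of 1.5 and gene spans by strand underneath (red, small heat shock protein genes with values, and white, no value used), where CG4080 runs past the right edge and has no point drawn. The red genes are above 0 in both genotypes, with CG4461 below 0 in both among them.

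The wider chaperone system varied among its members. Of 20 genes for Hsf and the Hsp70 and Hsp90 chaperones and their partners, 5 were higher with RU486 in both genotypes as deposited (9.41% of all genes), 8 on the all-gene scale (16.1%) and 11 relative to ribosomal protein genes (13.4%). The 5 were all Hsp70 copies. A fold change of at least 1.5 was reached by 3 of 20 in MEF2 RNAi flies (0.807% of all genes) and 9 of 20 in w1118 flies (6.54%), and by 5 of 20 in each genotype on the all-gene scale (2.14% and 1.25% of all genes). At or below 0.65 were 1 of 20 and 0 of 20 in MEF2 RNAi and w1118 flies, against 6.99% and 0.0384% of all genes. This list had median log2 fold changes of -0.39 and 0.57 in MEF2 RNAi and w1118 flies, or -0.029 and 0.22 on the all-gene scale. The highest differences between the genotypes were those of Hsp70Ba, with log2 fold changes of 0.46 and 0.63, and Hsp70Bbb, with 1.06 and 1.25. The lowest were those of the mitochondrial chaperone Hsc70-5, with -0.55 and 0.63, and of Hsp70Bb, with -0.38 and 1.12. The Hsp70 copies are nearly identical, so how reads were divided among them is uncertain. Hsf, named for its role and not by this rule, had -0.37 and 0.40, or -0.0083 and 0.046 on the all-gene scale.

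As deposited, partners of the small heat shock proteins in chaperone-assisted autophagy were lower upon RU486 in MEF2 RNAi flies and higher in w1118 flies. These are the directions of 83.7% of all genes, l(2)efl among them. Of 5 genes of that list, 0 were higher with RU486 in both genotypes as deposited (9.41% of all genes) and on the all-gene scale (16.1%), and 1 (Hsc70-4) relative to ribosomal protein genes (13.4%). The medians of its log2 fold changes were -0.55 in MEF2 RNAi and 0.44 in w1118 flies. Starvin (stv), the co-chaperone that binds Hsp67Bc, had -0.57 and 0.43. The filamin gene cher had -0.55 and 0.59, and the autophagy receptor ref(2)P had -0.55 and 0.44. The ubiquitin ligase STUB1 had -0.49 and 0.32, and the constitutive chaperone Hsc70-4 had -0.47 and 0.58. On the all-gene scale STUB1 was lower with RU486 in both genotypes, at -0.12 and -0.027.

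Pathways known to act on these genes gave counts near the shares of all genes, from which nothing particular to them can be read. Of 14 ecdysone response genes, 0 were higher with RU486 in both genotypes as deposited (9.41% of all genes) and 1 on the all-gene (16.1%) and on the ribosomal scale (13.4%). A fold change of 1.5 was reached by 0 of 14 in MEF2 RNAi flies (0.807%) and 2 of 14 in w1118 flies (6.54%). In MEF2 RNAi and w1118 flies, log2 fold changes were -0.33 and 0.17 for the nuclear receptor gene Hr3, -0.25 and 0.34 for Hr4, -0.61 and 0.52 for Hr38, and -0.48 and 0.66 for Eip71CD. Of 10 genes of the FOXO and JNK pathways, 0 were higher in both as deposited, 1 on the all-gene scale and 2 relative to ribosomal protein genes, against the same shares. Thor, a FOXO target that restrains translation, had -0.79 and 0.42, foxo itself -0.53 and 0.54, the insulin receptor gene InR -0.32 and 0.22, and the coactivator gene srl -0.037 and 0.74.

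Germline markers were set beside Hsp27. As deposited, the library in which Hsp27 was highest was also the highest for 25 of 29 germline markers with values (3.97% of all genes). Their median log2 value was 0.47 with RU486 and -0.19 without it in MEF2 RNAi flies, and -0.064 with RU486 and -0.27 without it in w1118 flies. In these deposited medians the 4 libraries came in the order they had for Hsp27. That was not the order of Hsp23 or Hsp26, for which w1118 flies with RU486 were highest. On the all-gene scale Hsp27, Hsp23 and Hsp26 shared the same order of libraries, and the germline medians had a different order. Germline markers had median log2 fold changes of 0.60 and 0.17 in MEF2 RNAi and w1118 flies, or 0.96 and -0.18 on the all-gene scale, whereas Hsp26, Hsp23 and, at 0.23, Hsp27 were above 0 in w1118 flies on that scale. Single germline markers had values between -0.46 and 1.70 in MEF2 RNAi flies with RU486. Their part in the values of Hsp26 and Hsp27, which ovaries express, was not tested.

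Eggshell markers had the directions of germline markers on the all-gene scale but, as deposited, not MEF2 RNAi flies with RU486 as their highest library. Of 18 eggshell markers, 0 had their highest deposited value in that library (3.97% of all genes), a count near that share. The medians of their log2 fold changes in MEF2 RNAi and w1118 flies were 0.014 and 0.19, or 0.38 and -0.16 on the all-gene scale. On that scale 18 of 18 were higher with RU486 in MEF2 RNAi flies, as were 48.1% of all genes. In w1118 flies 4 of 18 were higher and 14 of 18 lower, where 51.4% of all genes were higher. Gut markers had medians of 0.31 and 0.061 on that scale. As deposited, muscle markers had medians of -0.57 and 0.49, fat body markers -0.58 and 0.30, gut markers -0.052 and 0.41, neuron markers -0.46 and 0.32, and hemocyte markers -0.45 and 0.47, in MEF2 RNAi and w1118 flies. As deposited, 0 genes of these 5 lists were highest in MEF2 RNAi flies with RU486 (3.97% of all genes). That share is low, so little particular to these lists can be read from the count.

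**Figure D5:**
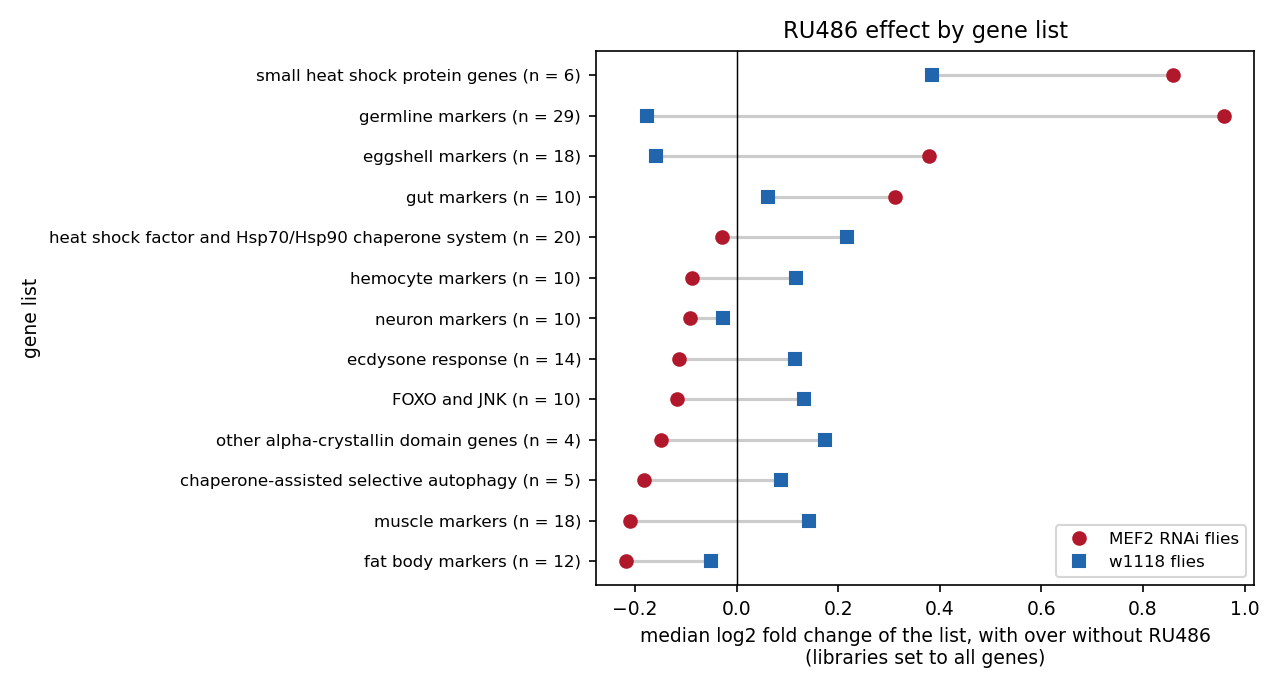
Median log2 fold change with over without RU486 (x axis, all-gene scale) of each gene list in MEF2 RNAi flies (circles) and w1118 flies (squares), with the number of genes in brackets. The small heat shock protein genes (0.86 and 0.39) are well above 0 in both genotypes, whereas germline markers (0.96 and -0.18) are so in MEF2 RNAi flies only.

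Among all genes, those nearest to each small heat shock protein gene in their 4 values were found by the root mean square difference over the 4 libraries. Hsp26 was nearest to Hsp70Ab (0.095) and GstD7 (0.10), Hsp23 to CG5987 (0.046) and pie (0.059), and Hsp27 to tum (0.060) and CG14814 (0.073). Hsp67Ba was nearest to CG8420 (0.023) and nom (0.032), Hsp67Bc to CR45359 (0.043) and GC2 (0.049), and l(2)efl to Sec24AB (0.013) and Gdh (0.015). None of the 6 had another of them as its nearest gene. Genes with a small spread have near neighbours by number alone, and 4 libraries are few for such a match. The spread of the 4 values was widest for Hsp26 (1.37), Hsp27 (1.33) and Hsp23 (1.10), ranks 82, 91 and 192 of all genes, and it was 0.74 for Hsp67Ba, 0.73 for l(2)efl and 0.60 for Hsp67Bc, against a median of 0.49 over the table.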

How the data were processed

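Per the labels, libraries were made from total RNA with a TruSeq stranded kit. What the authors deposited is a matrix of log2 values, 13012 genes by 4 libraries, centred so that each gene sums to 0. How reads were aligned, counted and normalized, and on which build, is not given in the sources used here. No depth can be read from the table, and no counts, intervals or floors are given. The small heat shock protein genes, lists, scales and fold limits (0.65 and 1.5, from the study's figure legends) were chosen with earlier results of these data known. Fold changes are 2 to the power of differences between log2 values. Libraries were also set to the median of all genes or of 79 cytosolic ribosomal protein genes. The genes named are the members, Mef2, the cluster and alpha-crystallin genes, the 2 highest and 2 lowest of each pathway list by the difference between genotypes, and the 2 nearest genes per member. Others were named after their values were seen. List symbols that matched no row (9 names, such as Hop, cup and Femcoat) were left out. Genes were placed with Ensembl release 115 (BDGP6) and named with RefSeq synonyms. Python 3.11.15, numpy 2.4.6, pandas 2.3.3 and matplotlib 3.10.9 were used, and the calls were tested on simulated data.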

Additional observations from a re-analysis of the deposited data

Results flagged for a closer look

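Named genes are given here where the library with RU486 was lower than that without it in 1 genotype and higher in the other, both as deposited and on the all-gene scale. The difference was not tested, with 1 library per condition, and 56.1% of all genes meet the same description. Among the small heat shock protein genes it holds for l(2)efl, with a difference between genotypes (MEF2 RNAi minus w1118, log2, deposited scale) of -1.18. Among the other alpha-crystallin domain genes it was -1.14 for CG7409, -1.05 for CG14207 and -0.98 for CG13133. Among chaperones and their partners it was -1.5 for Hsp70Bb, -1.18 for Hsc70-5, -1.14 for cher, -1.05 for Hsc70-4, -0.998 for stv, -0.98 for ref(2)P and -0.77 for Hsf. Among the genes nearest to a small heat shock protein gene it was -1.16 for Gdh and -1.14 for Sec24AB. Among ecdysone response genes it was -1.14 for Eip71CD, -1.12 for Hr38, -0.59 for Hr4 and -0.50 for Hr3. Among FOXO and JNK genes it was -1.21 for Thor, -1.07 for foxo and -0.55 for InR. For Hr3, Hr4 and InR the difference on the all-gene scale was above 0, at 0.22, 0.12 and 0.17.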

How the results depend on the processing

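With 1 library per condition, no value has a replicate check, and depth cannot be judged. No paired analysis was possible because conditions had single libraries and nothing was tested. As deposited, 3 of 6 genes in MEF2 RNAi flies (0.807% of all genes) and 5 of 6 in w1118 flies (6.54%) had a fold change of at least 1.5. On the all-gene scale the counts were 5 and 2 (2.14% and 1.25% of all genes). Relative to ribosomal protein genes they were again 5 and 2 (3.38% and 0.845%). In each genotype, 2 of 6 remained past a 2-fold limit and 2 of 6 past 1.5 over the mean of the other 3 libraries. The shares of all genes at these settings are not given. In MEF2 RNAi flies, the members' median log2 fold change was 0.49 as deposited, 0.86 on the all-gene scale, 0.97 relative to ribosomal protein genes and 0.30 over the mean of the other 3 libraries. In w1118 flies it was 0.73, 0.39, 0.24 and 0.51. The median difference between genotypes was -0.39 as deposited and turned to 0.32 and 0.57 on these 2 rescalings. That follows from the rescaling itself, which adds 1 amount to every gene. Leaving out each gene in turn gave medians of 0.33 to 0.66 in MEF2 RNAi flies, 0.73 to 0.74 in w1118 flies and -0.41 to -0.37 for the difference. Without the 16.1% of genes whose values all lay within 0.1 of 0, the shares of all genes past the limits stayed within 1.5 times.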
